A study of Mus musculus with 7 samples.

Results

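The transcripts of 10 BCL2 family genes, which set the balance between survival and death of a cell, were followed in mouse Group 3 medulloblastoma (G3 MB). They were chosen by name among the 34592 genes of the count table. Mcl1, Bcl2l1 (encoding BCL-XL), Bcl2l2 (BCL-W) and Bcl2 are anti-apoptotic, Bak1 forms pores in mitochondria, and Bcl2l11 (BIM), Bid, Bad, Bmf and Bik are BH3-only death genes. All 10 were in the table and 9 of them passed the filter on low counts, which Bik did not.

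RNA was sequenced from 7 tumors, 4 labelled WDR11OE and 3 controls. All grew from a single mouse G3 tumorsphere line, # 19568. It was made from cerebellar granule neuron progenitors of Trp53-/-, Cdkn2c-/- mice with a retrovirus carrying Myc and a fluorescent protein. The methods name this protein as GFP, whereas a figure legend of the paper gives RFP for this line. Spheres of the WDR11OE group were infected with a lentivirus (pCDH-EF1-WDR11-T2A-copGFP) that expresses human WDR11 from the EF1 promoter. Controls are labelled as untreated, whereas the treatment protocol and the methods describe an empty vector, pCDH-EF1-MCS-T2A-copGFP. The infected cells, which had not been sorted, were placed in the cortices of CD1 nu/nu mice, and pieces of tumor were taken when the mice were moribund, so host brain cells can be part of each sample. Per the methods, the model is made with early postnatal progenitors and young adult hosts. The labels' source names speak of tumorspheres, whereas the protocols describe RNA from pieces of tumor. The titles of WDR11OE replicates 1 and 2 share a tumor number, and no label says that the tumors of a group come from separate animals, so the p-values measure the spread between these samples. Sample names of controls and of WDR11OE tumors come from separate number series, with titles of a different form. Whether the groups were handled or sequenced together is not given, so any such difference cannot be told apart from the group.

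BCL2 proteins meet at the outer membrane of mitochondria. The pore formers BAK and BAX release cytochrome c, which starts the caspase cascade, and the anti-apoptotic proteins hold them in check. BH3-only proteins carry stress signals, as they occupy the anti-apoptotic proteins or activate the pore formers directly. Cerebellar granule neuron progenitors are known for their readiness to undergo this mitochondrial form of apoptosis, and MYC is known to lower the threshold for it.

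The BH3 region is the helix through which these proteins bind each other, and its core is shown for every member because it is what joins survival and death genes into a family. The translated coding sequence of each member was searched for leucine or methionine, any 2 residues, a hydrophobic residue, a small residue and aspartate, and each of the 10 held the pattern at 1 place. Methionine was allowed after a search with leucine alone had not found it in Bcl2l2. Capitals mark the 18 bases of the core, and 9 bases stand on each side, all in coding exons. Sequences are from GENCODE vM1 transcripts and coordinates are those of NCBIM37 (mm9).
Mcl1 (chr3:95463350-95463385, + strand): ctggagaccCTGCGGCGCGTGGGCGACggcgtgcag
Bcl2l1 (chr2:152655433-152655468, - strand): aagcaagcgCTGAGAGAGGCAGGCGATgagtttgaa
Bcl2l2 (chr14:55503345-55503380, + strand): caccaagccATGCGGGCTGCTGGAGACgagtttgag
Bcl2 (chr1:108609152-108609187, - strand): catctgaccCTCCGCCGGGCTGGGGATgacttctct
Bak1 (chr17:27159476-27159511, - strand): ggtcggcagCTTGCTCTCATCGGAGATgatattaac
Bcl2l11 (chr2:127972877-127972912, + strand): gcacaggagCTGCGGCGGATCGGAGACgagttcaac
Bid (chr6:120847307-120847342, - strand): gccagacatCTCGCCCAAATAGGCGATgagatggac
Bad (chr19:7025273-7025308, + strand): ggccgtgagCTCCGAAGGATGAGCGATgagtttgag
Bmf (chr2:118370836-118370871, - strand): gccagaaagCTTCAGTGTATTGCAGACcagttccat
Bik (chr15:83373505-83373540, + strand): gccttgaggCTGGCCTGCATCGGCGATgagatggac

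Total counts per tumor lay between 32116095 and 87141305. Levels are given as counts normalised to library size (CPM) and scaled by the trimmed mean of M-values (TMM), and levels of different genes were compared only as RPKM, the CPM per kilobase of joined exons. The deposited table holds a row for human WDR11, which had 73, 92 and 102 counts in the controls and 185, 169, 99 and 57 counts in WDR11OE replicates 1 to 4. The groups overlapped, with 2.45 ± 0.592 CPM (SD, n = 3) in controls and 2.54 ± 1.58 CPM (SD, n = 4) in tumors labelled WDR11OE, and replicate 4 was below all controls. The log2 fold change of this row was 0.05 with an adjusted p of 0.961 (quasi-likelihood test of edgeR, Benjamini-Hochberg adjustment), and that of mouse Wdr11 was 0.16 with an adjusted p of 0.0910. This row therefore does not separate the groups, how much of the vector's transcript it captures was not tested, and other measurements of WDR11 by the study are not used here. Each direction below is that of the tumors labelled WDR11OE against the controls. Trp53 and Cdkn2c, deleted in the line, had 48.4 and 16.2 CPM in controls and 32.7 and 21.6 CPM in tumors labelled WDR11OE. Their log2 fold changes were -0.56 (edgeR adjusted p = 0.00762) and 0.42 (edgeR adjusted p = 0.162). The counts per gene do not say which exons the reads came from. Markers of dividing cells were abundant. Top2a had 613 CPM in controls and 997 CPM in tumors labelled WDR11OE, with a log2 fold change of 0.70 (edgeR adjusted p = 0.00593). Mki67 went the other way, with 818 and 665 CPM, and did not pass (-0.30, edgeR adjusted p = 0.0949). Atoh1, which defines granule neuron progenitors, had no counts in 7 of 7 tumors and Barhl1 had 1 count in total. The other granule lineage genes looked at were expressed. Pax6, Zic1 and Zic2 had 20.9, 10.1 and 3.35 CPM in controls and 21.4, 7.07 and 5.75 CPM in tumors labelled WDR11OE. Zic1 varied widely, at 2.06, 1.76, 7.67 and 16.8 CPM in WDR11OE replicates 1 to 4, and Pax6 was highest in replicate 4 at 31.1 CPM. What share of these reads came from host cells was not tested.

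Of the 9 members tested, 4 were lower in the tumors labelled WDR11OE at an adjusted p under 0.05 (quasi-likelihood test of edgeR, Benjamini-Hochberg adjustment over all 17389 genes tested). They were the survival genes Bcl2 and Bcl2l1, the pore former Bak1 and the BH3-only gene Bcl2l11. Across all genes tested 15.8% were lower and 18.1% were higher by this rule. No member was higher, and the count of higher members was also 0 at an unadjusted p under 0.05 and with DESeq2 or limma voom. The median log2 fold change of the 9 was -0.09, against 0.08 for all genes tested. With a change of at least 2-fold required as well, 0 members passed in either direction, also at an unadjusted p under 0.05, with DESeq2 and with limma voom, while 3.45% of all genes were lower and 2.36% higher by that rule. In bulk tumors, fewer cells of a type and less RNA per cell cannot be told apart.

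**Figure D1:**
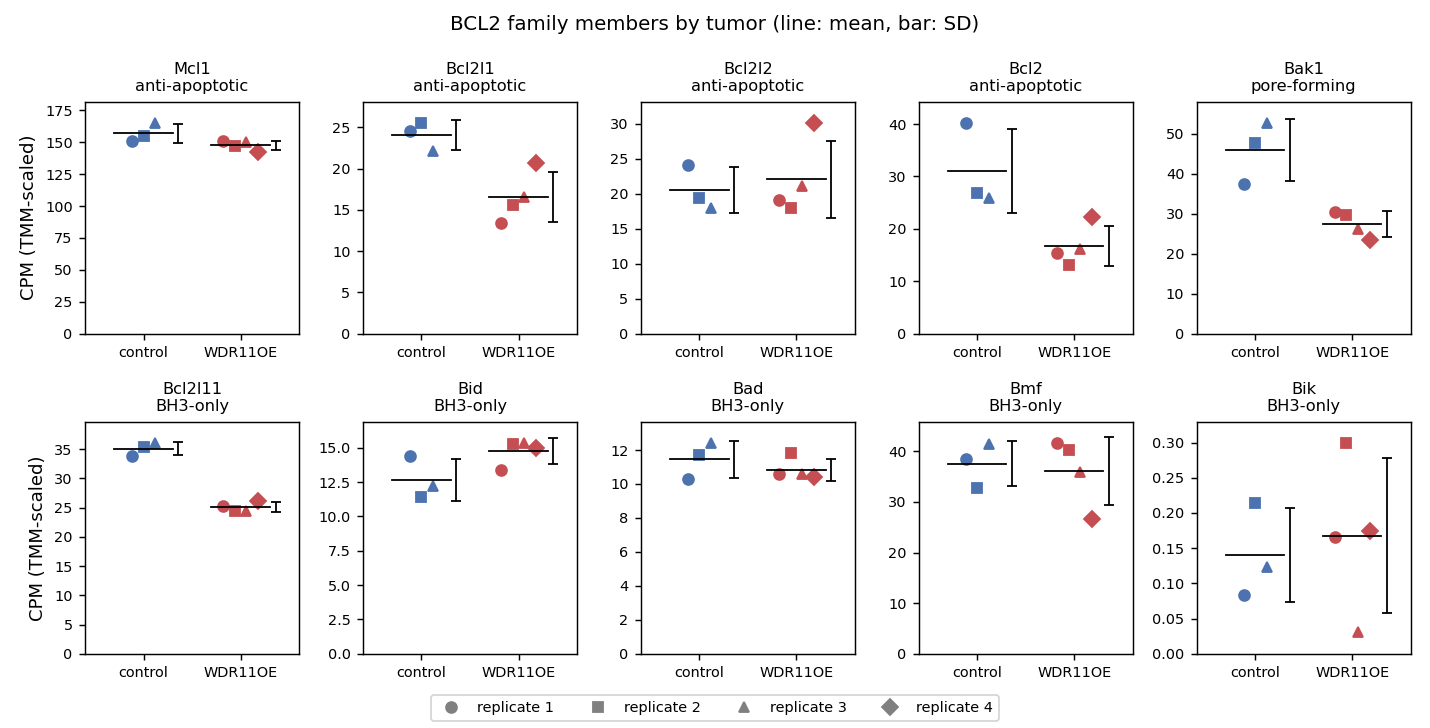
CPM (TMM-scaled, linear axis from 0) of each of the 10 members in 3 control tumors (blue) and 4 tumors labelled WDR11OE (red), with symbols for replicates, lines for means and bars for SD. Bcl2l1, Bcl2, Bak1 and Bcl2l11 lie lower in all 4 WDR11OE tumors than in any control.

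Mcl1, a short-lived protein on which many dividing cells depend for survival, lies at chr3:95462643-95467099 on the + strand (NCBIM37). It had 151.2, 154.8 and 165.2 CPM in control replicates 1 to 3 and 150.9, 147.4, 149.9 and 142.7 CPM in WDR11OE replicates 1 to 4. The WDR11OE tumors were all lower, but by a narrow margin. Means were 157.1 ± 7.26 (SD, n = 3) and 147.7 ± 3.65 CPM (SD, n = 4), and the log2 fold change of -0.09 (SE 0.06, 95% interval -0.23 to 0.05) did not pass, with an adjusted p of 0.309 in edgeR. By exact permutation, two-sided, p was 0.0286, the smallest that 7 tumors divided into 4 and 3 can give. Mcl1 was the most abundant member per kilobase in 7 of 7 tumors, with mean levels of 45.1 RPKM in controls and 42.4 RPKM in tumors labelled WDR11OE, above 93.7% and 92.9% of the tested genes with a known length.

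Bcl2, the founding survival gene of the family, had a larger fold change than the other members in the fit to all 7 tumors. Bak1 had the larger one in 4 of 18 alternatives, which were leaving out control replicate 1 (-0.87 against -0.66 for Bcl2), leaving out WDR11OE replicates 1 and 2 together, removing the exon length trend and the neuron covariate described below. Bcl2 lies at chr1:108434755-108610851 on the - strand. Its level was 40.2, 26.8 and 25.9 CPM in the controls and 15.3, 13.1, 16.1 and 22.2 CPM in the tumors labelled WDR11OE. Control replicate 1 was the highest and WDR11OE replicate 4 was the nearest to the controls, without reaching them. The mean fell from 30.99 ± 8.01 (SD, n = 3) to 16.7 ± 3.88 CPM (SD, n = 4), which is a log2 fold change of -0.89 (SE 0.22, 95% interval -1.42 to -0.37, edgeR adjusted p = 0.0199). Without control replicate 1 the log2 fold change was -0.66 (edgeR adjusted p = 0.0580) and without WDR11OE replicate 3 it was -0.88 (edgeR adjusted p = 0.0525). The call was also lost without WDR11OE replicates 1 and 2 together (edgeR adjusted p = 0.0734), and it passed in 15 of 18 alternatives in all. The exact permutation test gave p = 0.0571, two-sided.

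Bcl2l1, whose BCL-XL product keeps postmitotic neurons alive, lies at chr2:152593052-152657464 on the - strand. Its level was 24.6, 25.6 and 22.1 CPM in the controls and 13.4, 15.6, 16.6 and 20.7 CPM in the tumors labelled WDR11OE. Here too the groups did not overlap, and WDR11OE replicate 4 came nearest to the controls. The mean fell from 24.1 ± 1.77 (SD, n = 3) to 16.6 ± 3.07 CPM (SD, n = 4), which is a log2 fold change of -0.54 (SE 0.15, 95% interval -0.90 to -0.18, edgeR adjusted p = 0.0324; exact permutation p = 0.0571). This call was the least stable of the 4, as it passed in 11 of 18 alternatives, with adjusted p between 0.00109 and 0.103 across them. It was lost without control replicate 1 (0.0785), 2 (0.103) or 3 (0.0535) without WDR11OE replicate 3 (0.0728), without WDR11OE replicates 1 and 2 together (0.0732) and with library size scaling (0.0525).

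Bcl2l2, a relative that also protects neurons, did not pass the test. It lies at chr14:55502214-55507071 on the + strand and had 24.2, 19.5 and 17.9 CPM in the controls and 19.2, 17.9, 21.1 and 30.2 CPM in the tumors labelled WDR11OE. The groups overlapped, with WDR11OE replicate 4 highest. Its log2 fold change was 0.11 (SE 0.20, 95% interval -0.37 to 0.58), with an adjusted p of 0.729 in edgeR and an exact permutation p of 0.7429. The ratio of Bcl2 to Bcl2l2 in RPKM was 1.03, 0.856 and 0.897 in controls, whereas it lay between 0.453 and 0.497 in the 4 tumors labelled WDR11OE. Both ratios of levels in this text were chosen after the values were seen, and are descriptions without a test.

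The pore former Bak1 fell as well. The gene, at chr17:27156755-27165954 on the - strand, had 37.5, 47.6 and 52.7 CPM in the controls and 30.4, 29.6, 26.2 and 23.5 CPM in the tumors labelled WDR11OE. The lowest control, replicate 1, was above the highest WDR11OE tumor. The mean fell from 45.9 ± 7.73 (SD, n = 3) to 27.5 ± 3.19 CPM (SD, n = 4), which is a log2 fold change of -0.74 (SE 0.14, 95% interval -1.07 to -0.41, edgeR adjusted p = 0.00661; exact permutation p = 0.0286). Removing the trend of fold change with exon GC content, which had a Spearman rho of -0.34 over all tested genes, left -0.53 for Bak1 (edgeR adjusted p = 0.0564), whose exons have 57.1% GC, and -0.45 for Bcl2l1 (edgeR adjusted p = 0.0538). Bax, the other main pore former and no member of the 10, had 35.02 ± 6.65 CPM (SD, n = 3) in controls and 36.6 ± 3.82 CPM (SD, n = 4) in tumors labelled WDR11OE, with a log2 fold change of 0.06 and an edgeR adjusted p of 0.776. The ratio of Bak1 to Bax in RPKM was 0.751, 0.726 and 0.718 in the controls and 0.442, 0.407, 0.405 and 0.414 in WDR11OE replicates 1 to 4, so the ratio varied less within each group than either gene did.

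Bcl2l11, whose BIM product binds all the anti-apoptotic proteins, had the smallest p of the members. The gene lies at chr2:127951774-127988283 on the + strand. It had 33.8, 35.4 and 36.03 CPM in the controls and 25.3, 24.4, 24.3 and 26.1 CPM in the tumors labelled WDR11OE. The tumors of each group were close together, with coefficients of variation of 3.33% and 3.38%, and far from those of the other group. The mean fell from 35.1 ± 1.17 (SD, n = 3) to 25.04 ± 0.846 CPM (SD, n = 4), which is a log2 fold change of -0.49 (SE 0.07, 95% interval -0.64 to -0.33, edgeR adjusted p = 0.00211; exact permutation p = 0.0286). With the trend of fold change with exon length removed it was -0.33 (edgeR adjusted p = 0.0806). Among 14807 tested genes with an average log2 CPM above 0, the 3 with the most similar pattern were Bcl7b, 6330578E17Rik and C230096C10Rik, whose centred log2 CPM differed from that of Bcl2l11 by a root mean square of 0.039, 0.039 and 0.041 over 7 tumors.

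FOXO factors are known to transcribe Bcl2l11, and both FOXO genes looked at were lower in the tumors labelled WDR11OE. Foxo1 fell from 20.1 ± 1.54 (SD, n = 3) to 8.95 ± 2.24 CPM (SD, n = 4), with a log2 fold change of -1.17 and an edgeR adjusted p of 0.00408, and Foxo3 from 97.9 ± 5.10 (SD, n = 3) to 68.6 ± 2.63 CPM (SD, n = 4), with -0.51 and 0.00151. Promoters of the members were searched on both strands for the FOXO core GTAAACA and the MYC E-box CACGTG in the 250 bases before each RefSeq start (GRCm38.p6), in 15 windows for 9 members, without Bik. The letters CACGTG were in 0 of 15 windows and in 6.02% of all 32851 windows of that length, and GTAAACA in 1 of 15 and in 3.17% of all. That window is the one below, shown because it is the only member window with either motif, which stands in capitals and begins 227 bases before the start. The match is a description, and binding was not measured. Whether the lower Foxo1 and Foxo3 had a part in the fall of Bcl2l11 was not tested.
Bcl2l11 promoter (chr2:128125788-128126037, + strand): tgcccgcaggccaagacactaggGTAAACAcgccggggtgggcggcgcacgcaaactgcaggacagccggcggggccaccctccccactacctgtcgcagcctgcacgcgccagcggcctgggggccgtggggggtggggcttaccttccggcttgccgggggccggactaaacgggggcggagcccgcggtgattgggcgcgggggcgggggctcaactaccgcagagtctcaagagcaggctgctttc

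The other BH3-only genes did not pass the test. Bid, which caspase-8 cleaves to link death receptors to mitochondria, lies at chr6:120841948-120866871 on the - strand. Bid had 14.4, 11.4 and 12.2 CPM in the controls and 13.4, 15.3, 15.3 and 15.01 CPM in the tumors labelled WDR11OE, and control replicate 1 lay among the latter. Its log2 fold change was 0.22 (SE 0.12, 95% interval -0.07 to 0.50), with an edgeR adjusted p of 0.219 and an exact permutation p of 0.0857. Among the same genes, the patterns nearest to that of Bid were those of Usp46, Gm12905 and Tmem80, at root mean square differences of 0.053, 0.056 and 0.060 in centred log2 CPM.

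Bad, which growth factor signaling holds inactive through binding to 14-3-3 proteins, lies at chr19:7016351-7026388 on the + strand. It had 10.3, 11.7 and 12.4 CPM in the controls and 10.6, 11.8, 10.6 and 10.4 CPM in the tumors labelled WDR11OE. The values of both groups were interleaved. Its log2 fold change was -0.08 (SE 0.12, 95% interval -0.37 to 0.21), with an edgeR adjusted p of 0.658 and an exact permutation p of 0.3714.

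Bmf, held at the actin cytoskeleton by a dynein light chain, lies at chr2:118354493-118375423 on the - strand and had 38.5, 32.7 and 41.5 CPM in the controls and 41.6, 40.4, 35.9 and 26.6 CPM in the tumors labelled WDR11OE. The WDR11OE tumors held both the highest value, in replicate 1, and the lowest, in replicate 4. Its log2 fold change was -0.06 (SE 0.17, 95% interval -0.44 to 0.33), with an edgeR adjusted p of 0.830 and an exact permutation p of 0.7714. The intervals of these 3 genes and of Mcl1 lie within 0.50 of 0 on the log2 scale, and that of Bcl2l2 reaches 0.58.

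Bik, an inducer of apoptosis at the endoplasmic reticulum, lies at chr15:83357292-83375065 on the + strand and was hardly measured. Its counts were 3, 9 and 4 in the controls and 7, 24, 1 and 16 in the tumors labelled WDR11OE. At a floor of 3 counts, which corresponds to 0.0344 to 0.0934 CPM depending on the tumor and covers counting error only, control replicate 1 and WDR11OE replicate 3 were at or under the floor. Without the filter its log2 fold change was 0.25 and did not pass in edgeR, and a difference was not detectable at this depth.

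**Figure D2:**
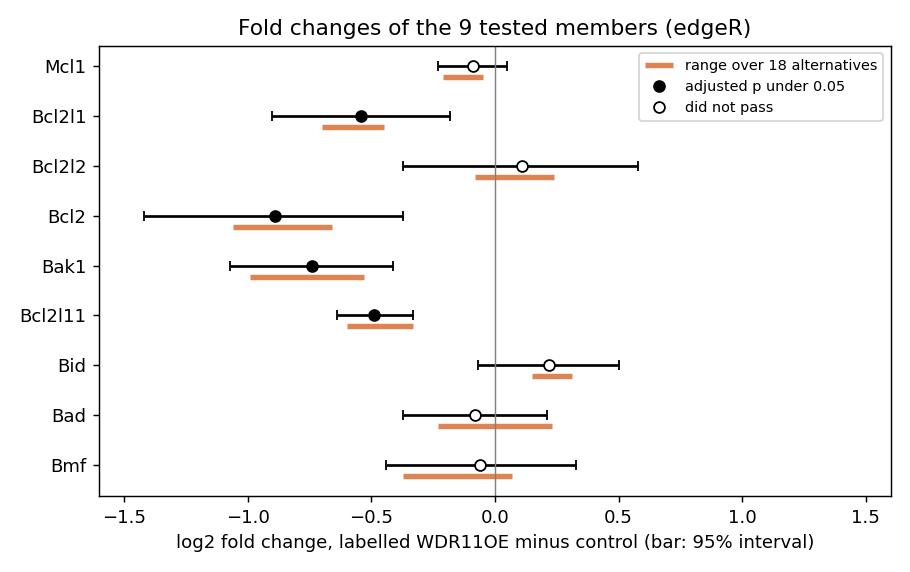
Log2 fold change (tumors labelled WDR11OE minus controls) of the 9 members tested, with 95% intervals in black and the range over 18 alternatives in orange. Filled points, adjusted p under 0.05, are Bcl2l1, Bcl2, Bak1 and Bcl2l11, whose ranges stay below 0 throughout.

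Without any fold or p threshold, the 2 groups did not overlap for 5 members, the 4 above and Mcl1, each with all WDR11OE tumors lower. Among all genes tested 19.1% were separated in this direction and 23.5% in the other, in which no member was.

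Exons of 4 members overlap other genes than those of the family. Same-strand Gm20521 covers 13.3% of the exon bases of Bcl2l2 and had 0 counts. On the opposite strand, D630008O14Rik covers 7.8% of Bcl2, Ggnbp1 14.8% of Bak1 and Gpr137 25.8% of Bad. Ggnbp1 was at 0.960 and 1.12 CPM and D630008O14Rik near 0, whereas Gpr137 had 9.84 and 11.01 CPM in controls and tumors labelled WDR11OE, so that Bad is uncertain where reads fall in the shared bases. How the counting treated reads in shared bases is not given. Low counts of the other genes therefore do not clear Bcl2l2, Bcl2 or Bak1.

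Per kilobase, Bak1 followed Mcl1 in 7 of 7 tumors, with mean levels of 19.1 ± 3.21 RPKM (SD, n = 3) in controls and 11.4 ± 1.33 RPKM (SD, n = 4) in tumors labelled WDR11OE. With joined exons as length, Bmf was next by its means at 7.15 ± 0.844 and 6.88 ± 1.30 RPKM, and Bik was last in 7 of 7 tumors. Between them, 6 members had close mean levels in controls, from Bad at 5.71 ± 0.541 RPKM through Bcl2l1 at 5.09 ± 0.374, Bcl2l2 at 4.60 ± 0.730, Bcl2l11 at 4.37 ± 0.146 and Bcl2 at 4.31 ± 1.11 to Bid at 3.57 ± 0.430 RPKM (SD, n = 3). Neighbours in this order differed by less than their SDs added together, so the order of neighbours is not resolved. Bid was the lowest of the tested members in every control. The order also depends on the length used, since with the longest single transcript the control means of Bcl2l1 and Bcl2l11 were 9.97 and 6.97 RPKM, and Bcl2l1 was above Bmf (8.09 RPKM). In the tumors labelled WDR11OE, again with joined exons, the order was Bad at 5.40 ± 0.329, Bcl2l2 at 4.95 ± 1.24, Bid at 4.16 ± 0.261, Bcl2l1 at 3.50 ± 0.648, Bcl2l11 at 3.12 ± 0.105 and Bcl2 at 2.32 ± 0.539 RPKM (SD, n = 4). Of these steps only the last, from Bcl2l11 to Bcl2, was wider than the SDs added together. Bcl2 was the lowest of the 9 tested members in 4 of 4 tumors labelled WDR11OE and in 0 of 3 controls, but in 7 of 7 tumors with the longest transcript as length.

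Added up, the 4 survival genes had 59.6, 57.9 and 59.7 RPKM in the controls and 52.6, 51.4, 53.5 and 55.2 RPKM in WDR11OE replicates 1 to 4. Every WDR11OE tumor was lower, and Mcl1 made up 72.8% to 79.4% of the sum in controls and 74.2% to 82.4% in tumors labelled WDR11OE. The 5 BH3-only genes added up to 20.8, 19.9 and 22.1 RPKM in the controls and 20.3, 21.2, 19.5 and 17.9 RPKM in the tumors labelled WDR11OE, with overlap. With the longest transcript as length, the survival sums were 63.6 to 65.2 RPKM in controls and 55.1 to 60.1 RPKM in tumors labelled WDR11OE, and the share of Mcl1 was 66.6% to 73.3% and 68.1% to 77.7%. These sums are descriptions of levels, without a test.

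Markers of brain cells differed in level between tumors of the same group. Sums over 8 neuron markers were 428, 142 and 62.7 CPM in control replicates 1 to 3 and 11.5, 26.4, 204 and 671 CPM in WDR11OE replicates 1 to 4, and 0 of the 8 passed the edgeR test (0 at an unadjusted p under 0.05, and 0 with DESeq2). Control replicate 1 and WDR11OE replicate 4, the tumors richest in neuron markers in their groups, were also the highest of their groups in Bcl2 and Bcl2l2, and the lowest in Bak1. With the neuron sum as a covariate, an alternative chosen after seeing the data, the log2 fold changes were -0.78 for Bcl2, -0.47 for Bcl2l1, -0.82 for Bak1 and -0.48 for Bcl2l11, and with these 2 tumors left out they were -0.88, -0.70, -0.85 and -0.58. All 4 passed in both fits (edgeR's quasi-likelihood test, largest adjusted p 0.0123).

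**Figure D3:**
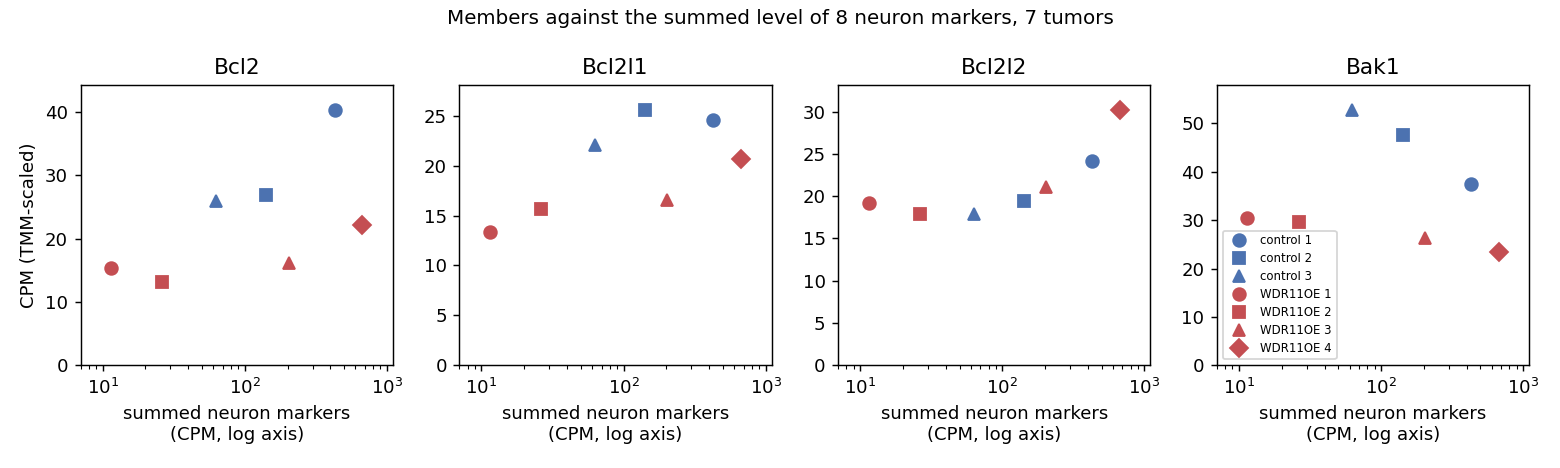
CPM of Bcl2, Bcl2l1, Bcl2l2 and Bak1 (linear axis from 0) against the summed CPM of 8 neuron markers (log axis) in 3 control tumors (blue) and 4 tumors labelled WDR11OE (red). WDR11OE replicate 4, at 671 CPM of neuron markers, is the WDR11OE tumor nearest to the controls for Bcl2 and Bcl2l1 and farthest from them for Bak1.

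Skeletal muscle markers moved with the groups. All 6 of 6 were higher in tumors labelled WDR11OE by edgeR, with sums of 1.38 to 1.97 CPM in controls and 34.3 to 106 CPM in tumors labelled WDR11OE, and Mb, which encodes myoglobin, was at 0 counts in every control. Their part in the members' results was not tested. Sums of astrocyte, oligodendrocyte, microglia and red cell markers overlapped between the groups, with S100b the only gene of these lists to pass (higher), and endothelial markers summed to 79.1 to 107 CPM in controls and 66.6 to 75.1 CPM in tumors labelled WDR11OE, with Cdh5 lower among 5.

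The rest of the family was measured with the same fit. Of 12 further genes, 10 were tested, 2 were lower and 8 did not pass, with a median log2 fold change of 0.15. For this list and those below, the shares over all genes tested were 15.8% lower and 18.1% higher. Bcl2l13, an outer membrane protein with roles in mitophagy, fell from 81.7 ± 9.13 (SD, n = 3) to 53.7 ± 4.30 CPM (SD, n = 4), with -0.61 and an edgeR adjusted p of 0.00388. Its exons overlap 17.7% of the exon bases of Bid on the opposite strand, so Bid is uncertain in the same way. Whether the counting used strand is not given in the sources used here. Bbc3, which encodes the p53 target PUMA, fell from 7.09 ± 1.56 (SD, n = 3) to 4.62 ± 0.261 CPM (SD, n = 4), with -0.62 and an edgeR adjusted p of 0.0383 that passed in 9 of 18 alternatives. With the GC trend removed Bbc3 was at -0.18 (edgeR adjusted p = 0.576). Pmaip1, encoding the p53 target NOXA, was at 0.775 and 1.24 CPM and did not pass (0.67, edgeR adjusted p = 0.289).

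Downstream of mitochondria the calls were higher in the tumors labelled WDR11OE. Of 12 genes of the apoptosome and caspases, 5 were higher and 7 did not pass, with a median log2 fold change of 0.28. Among all genes tested 18.1% were higher. Cycs, encoding cytochrome c, rose from 54.4 ± 8.11 (SD, n = 3) to 105.0 ± 9.67 CPM (SD, n = 4), with 0.95 and an edgeR adjusted p of 0.00155. Diablo, whose SMAC product leaves mitochondria with it and blocks IAPs, rose from 34.2 ± 1.17 (SD, n = 3) to 53.6 ± 1.79 CPM (SD, n = 4), with 0.65 and 0.00104. Apaf1, the scaffold of the apoptosome, rose by 0.46 (edgeR adjusted p = 0.0245), and Casp2 and Aifm1 rose by 0.27 and 0.30. Cycs and Diablo passed in 18 of 18 alternatives. The count of 5 was 2 without control replicate 1, WDR11OE replicate 1 or WDR11OE replicate 2 and with the GC or exon length trend removed. It was also 2 without a filter, without WDR11OE replicates 1 and 2 together and without the tumor of each group richest in neuron markers. It was 3 without control replicate 2 or WDR11OE replicate 3, and 4 to 6 in the other alternatives. The log2 fold change of the initiator Casp9 was -0.23 and did not pass (edgeR adjusted p = 0.210).

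Among the inhibitors of apoptosis (IAPs), 1 of 5 genes tested passed. Birc2, a ubiquitin ligase of TNF receptor signaling, rose from 30.3 ± 2.88 (SD, n = 3) to 51.4 ± 1.34 CPM (SD, n = 4), with a log2 fold change of 0.76 and an edgeR adjusted p of 0.00108. Xiap, the direct caspase inhibitor, and Birc5, encoding survivin, had 0.11 and 0.21 and did not pass (edgeR adjusted p = 0.297 and 0.286). With the GC trend removed Xiap was at -0.31 instead (edgeR adjusted p = 0.0142).

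In the death receptor pathway, which reaches the family through Bid, 3 of 8 genes tested were lower and 1 was higher, with a median of -0.14. Tnfrsf1a, the main TNF receptor, fell from 23.7 ± 3.56 (SD, n = 3) to 11.1 ± 1.29 CPM (SD, n = 4), with -1.09 and an edgeR adjusted p of 0.00190. Fadd, the adaptor that recruits caspase-8, had -0.72 (edgeR adjusted p = 0.00890), and Tnfrsf10b, the TRAIL receptor, had -0.48 (edgeR adjusted p = 0.0395). Ripk1, a kinase of the TNF receptor complex, rose by 0.44 (edgeR adjusted p = 0.0169), a call that was lost without WDR11OE replicate 1 or 2. Tnfrsf10b was lost without any of 6 tumors and passed without WDR11OE replicate 4.

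Of 14 genes whose products bind members or control their amount, 9 were lower and 2 higher, with a median of -0.53. Among all genes tested 15.8% were lower and 18.1% higher by this rule, and the list was chosen with earlier results known. Dynll2, the dynein light chain that binds BMF, fell from 55.9 ± 5.25 (SD, n = 3) to 27.9 ± 2.00 CPM (SD, n = 4), with an edgeR adjusted p of 0.00098, whereas Bmf itself did not pass. Of the 6 genes for 14-3-3 proteins, the partners of BAD, 5 were lower (Ywhab, Ywhae, Ywhag, Ywhah and Ywhaz) and Ywhaq rose from 204 ± 17.7 (SD, n = 3) to 294 ± 24.1 CPM (SD, n = 4), with 0.53 and 0.00596. Huwe1, a ubiquitin ligase for MCL1, had -0.53 (edgeR adjusted p = 0.0165), a call lost without control replicate 3, without WDR11OE replicates 1 and 2 together and with the exon length trend removed. Vdac2, the channel that brings BAK to mitochondria, rose by 0.40 (edgeR adjusted p = 0.0266) where Bak1 fell. The calls of Ywhaq and Vdac2 were lost without WDR11OE replicate 1 or 2, and that of Vdac2 also without control replicate 1 or 2, whereas Dynll2, Foxo1 and Foxo3 passed in 18 of 18 alternatives. Myc, the oncogene of the model and a known driver of BH3-only genes, fell from 914 ± 168 (SD, n = 3) to 347 ± 75.5 CPM (SD, n = 4), with -1.40 and an edgeR adjusted p of 0.00227, and the counts do not separate the retroviral copy from the mouse gene.

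**Figure D4:**
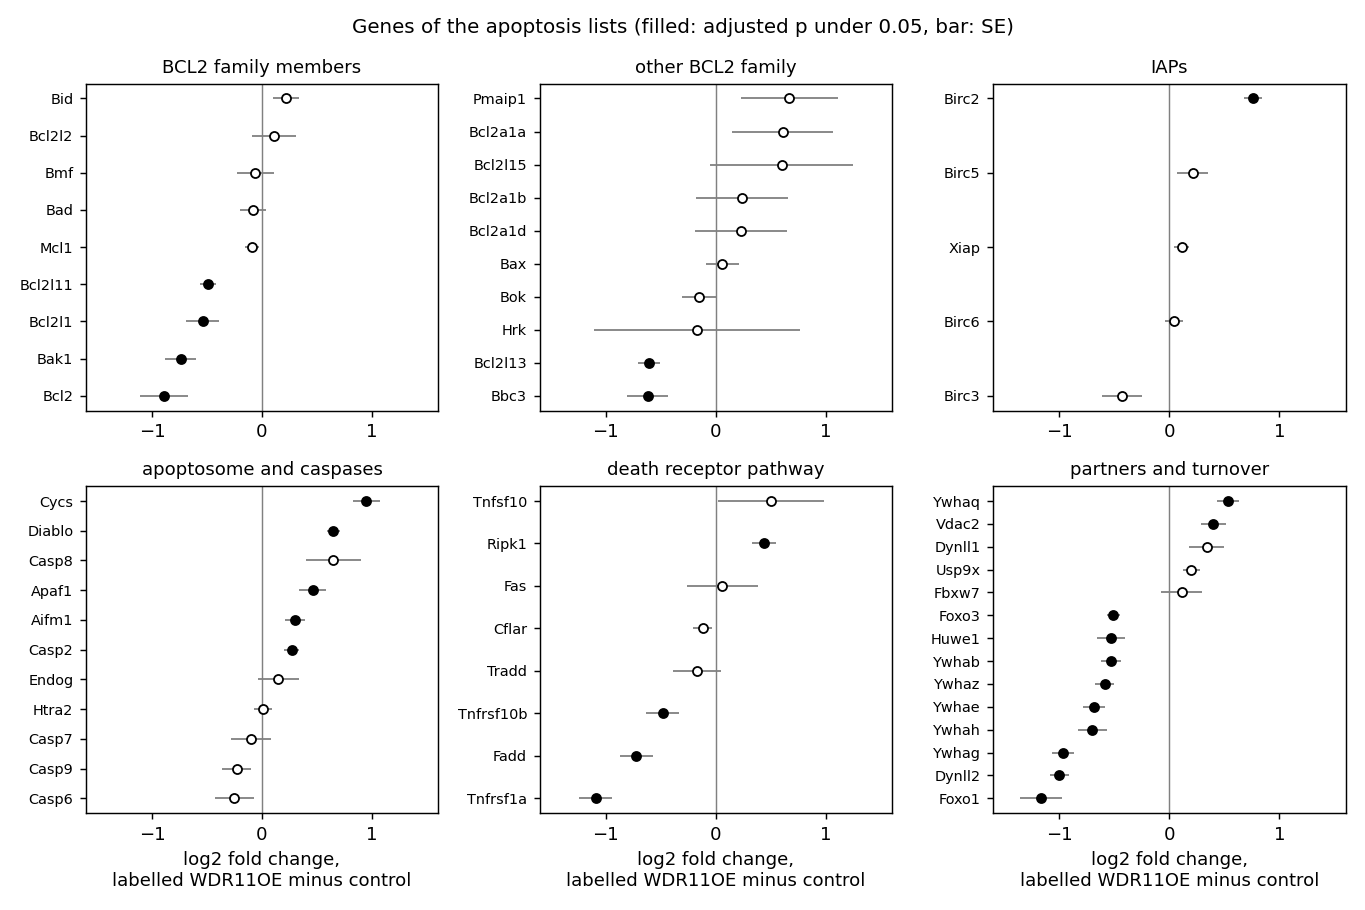
Log2 fold change with SE (tumors labelled WDR11OE minus controls) of tested genes in 6 lists, filled where the adjusted p was under 0.05. The filled points lie below 0 in both BCL2 family lists and above 0 in the apoptosome and IAP lists.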

How the data were processed

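RNA of 7 G3 MBs was sequenced by the authors, 4 labelled WDR11OE and 3 controls. The labels name a TruSeq RNA kit v2, which does not mark strand, and the methods describe stranded total RNA-seq. Per the labels' processing notes, CASAVA 1.7, STAR, BWA and HTSeq were used with mm9. The authors deposited raw counts per gene and tumor, without normalization. Total counts lay between 32116095 and 87141305, and 0 columns were left unused. The floor used for Bik covers counting error only. The intervals of log2 fold changes come from the edgeR fit and include the spread between tumors.

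Counts were analysed in R 4.3.3 with edgeR 4.0.16. The default filterByExpr left 17389 of 34592 genes, which were normalised by TMM. The two-sided quasi-likelihood test was adjusted over all of them by Benjamini-Hochberg, with group as the only term and all 7 tumors in the fit. The biological coefficient of variation was 34.6%. Single values were also compared by the exact permutation test over all 35 divisions of the tumors into 4 and 3, unadjusted. CPM are TMM-scaled and RPKM divide them by joined exon length, or by the longest transcript as an alternative. Exon length, GC content and coordinates came from GENCODE vM1 on NCBIM37, matched by Ensembl gene identifier for 97.1% of genes. On simulated data with a log2 fold change of 1.5 in size for 193 genes, the fit recovered 56% of them, with 2.7% false calls. Smaller changes, such as those of the members, were not simulated.

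The members and lists were chosen with earlier results of these data known. The text names all 10 members, the 2 genes with the largest fold change in each direction among those that passed in each further list, Bax, Bbc3, Pmaip1, Casp9, Apaf1, Xiap, Birc5, the checks Wdr11, Trp53, Cdkn2c and Myc, and the 3 genes nearest in pattern to the member with the smallest p in each direction. The human WDR11 row, overlapping genes and the other genes that passed in a list were named after their values were seen. A gene of the apoptosome list that counts in its totals is not reported here.

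Alternatives were limma 3.58.1 with voom, DESeq2 1.42.0, library size and upper quartile scaling, no filter, a filter of 1 CPM in 3 tumors, removal of the trend with exon GC or length by loess (span 0.3), and leaving out each tumor or WDR11OE replicates 1 and 2. The neuron sum as a covariate, and leaving out the tumor of each group with the most neuron markers, were chosen after seeing the data.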

Additional observations from a re-analysis of the deposited data

Results flagged for a closer look

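In 34 groups of 4 tumors labelled WDR11OE, the gap between the highest or lowest tumor and the nearest other was set against the range of the group, and 3 were above Dixon's 95% limit for 4 samples, where chance gives about 5% of groups. Bid in replicate 1, at 13.4 CPM, lay below the other three (0.831). Bad in replicate 2, at 11.8 CPM, lay above the others (0.856). Casp9 in replicate 4, at 14.3 CPM, lay above the others (0.935).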

How the results depend on the processing

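Over 18 alternatives for the 9 tested members, 150 fold changes stayed on their side of the threshold and 12 calls of Bcl2, Bcl2l1, Bak1 or Bcl2l11 were lost with their direction unchanged. With the GC trend removed, 2 members were lower (Bcl2 and Bcl2l11), 1 member changed at least 2-fold (Bcl2), 1595 of all genes were higher and Xiap turned to -0.31. Without a filter 2093 genes were higher. Without WDR11OE replicates 1 and 2 together, 2 members were lower, 1035 genes were higher and 255 were higher by at least 2-fold, and with the neuron sum as a covariate 619 were. Leaving out 1 tumor at a time gave 2 to 4 lower members, 0 to 1 members changed at least 2-fold (Bcl2, without control replicate 3 or WDR11OE replicate 4) and 1560 to 2986 higher genes, the lowest without WDR11OE replicate 1. Bcl2 and Bcl2l1 were lost without control replicate 1 or WDR11OE replicate 3, and Bcl2l1 without control replicate 2 or 3 or with library size scaling. With the longest transcript as length, 9 of 20 mean levels per kilobase moved by more than the SD between tumors. The causes were not tested. No paired analysis was possible because the labels give the groups no shared replicate numbers. With 3 and 4 tumors, the exact test cannot go below 0.0286, and depth limits only Bik among the members.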
